A study of Homo sapiens with 8 samples.

Results

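The long noncoding RNAs MALAT1, NEAT1, TUG1, CRNDE, H19, KCNQ1OT1, MEG3, and PVT1 were followed in RNA pulled down with an antibody to RPS6, which belongs to the small subunit of the ribosome, and in the matching input RNA of 4 cancer cell lines. They were chosen by name as RNAs known from the nucleus or from cancer, and all 8 names were found once among the 57756 genes of the expression tables. The cells were Hep3B (hepatocellular carcinoma), HCT116 (colorectal cancer), DU145 (prostate cancer), and SW1990 (pancreatic cancer), with no drug or genetic change in the labels. Each line gave 1 RNA immunoprecipitation (RIP) library and 1 input library of cell RNA without pulldown, and no pulldown with a control antibody was used here. The lines therefore served as the only replicates, and differences between single lines carry no replicate check. The labels give Huh7 as the cell line of the liver pair while its titles, and the paper, point to Hep3B, so the pair was called Hep3B. Fragments counted in the listed genes came to between 35796277 and 54209595 in input and between 34630234 and 42610128 in RIP. The number of reads sequenced is not known from these counts. Of the counted fragments, 3, taken as the floor, corresponded to 0.0553 to 0.0866 in 1000000. Of the markers fixed for each tissue, the 6 of liver were all above 1 FPKM (fragments scaled to transcript length and to library depth) in Hep3B input. The colon markers CDX1, VIL1, CDH17, and GPA33 were under 1 FPKM in HCT116 input, the prostate markers KLK3, HOXB13, and KRT5 in DU145 input, and the pancreatic marker CEACAM6 in SW1990 input.

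Ribosomes translate mRNA in the cytoplasm, while many long noncoding RNAs stay in the nucleus and code for no known protein. MALAT1 collects in nuclear speckles, bodies rich in splicing factors, and NEAT1 is the scaffold of paraspeckles, made as a short and a long isoform that share one start. H19, KCNQ1OT1, and MEG3 come from imprinted clusters, in which only 1 parental copy of a gene is active. TUG1 was found as a gene turned on by taurine, PVT1 lies beside the MYC oncogene, and CRNDE, named for colorectal neoplasia, lies beside the homeobox gene IRX5.

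By the coordinates of the files (hg19), 4 of the RNAs lie on chromosome 11. NEAT1 spans chr11:65190244-65213011 and MALAT1 chr11:65265232-65273940. H19 spans chr11:2016405-2022700, and KCNQ1OT1 is given as chr11:2465913-2882798, a span it shares with KCNQ1, a gene on the opposite strand. Elsewhere lie TUG1 at chr22:31366662-31375381, CRNDE at chr16:54952774-54963101 and MEG3 at chr14:101245746-101327368. For genes that overlap, the files give the span of the whole overlapping group, so those of KCNQ1OT1, MEG3, PVT1, TUG1, and MALAT1 may be wider than the gene. NEAT1, H19, and CRNDE shared their span with no other listed gene.

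Start sites and microRNAs were taken from RefSeq (GRCh38.p14), in which windows from 250 bases before to 50 bases after a start were found for 5 of the 8 RNAs. The windows of H19, MALAT1, and TUG1 are shown because H19 was the RNA that varied most between lines, while MALAT1 and TUG1 were found at 16.4 FPKM or more in all 4 inputs. Capitals mark promoter strings, searched on both strands in all 35116 such windows. The TATA box letters TATAAA occur in 11.5% of them. The CCAAT box occurs in 34.6% of the windows. The GC box, with the letters GGGCGG, occurs in 45.0%. 
H19, chr11:2001217-2001516, minus strand: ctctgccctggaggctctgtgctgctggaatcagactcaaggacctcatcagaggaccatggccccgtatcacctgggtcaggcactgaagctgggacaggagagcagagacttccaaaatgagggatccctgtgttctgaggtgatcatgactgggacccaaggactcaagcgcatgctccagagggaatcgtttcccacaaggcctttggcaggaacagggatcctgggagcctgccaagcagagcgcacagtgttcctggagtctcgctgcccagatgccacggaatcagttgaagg
MALAT1, downstream of its 2 starts, chr11:65498795-65499094, plus strand: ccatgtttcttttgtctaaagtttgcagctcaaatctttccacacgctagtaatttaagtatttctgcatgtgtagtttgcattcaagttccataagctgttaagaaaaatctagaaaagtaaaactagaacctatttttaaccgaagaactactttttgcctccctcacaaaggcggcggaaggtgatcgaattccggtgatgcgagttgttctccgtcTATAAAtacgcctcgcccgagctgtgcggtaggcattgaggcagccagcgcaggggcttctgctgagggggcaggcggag
TUG1, chr22:30969015-30969314, plus strand: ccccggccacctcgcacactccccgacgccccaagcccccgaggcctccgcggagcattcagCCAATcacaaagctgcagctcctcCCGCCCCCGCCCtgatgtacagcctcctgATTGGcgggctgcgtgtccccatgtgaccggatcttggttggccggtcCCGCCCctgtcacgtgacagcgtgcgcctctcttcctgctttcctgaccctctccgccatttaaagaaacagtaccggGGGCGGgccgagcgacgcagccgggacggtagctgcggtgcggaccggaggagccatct
Whether H19 RNA in these lines began at the start shown was not measured. In the window shown H19 had 6 CpG dinucleotides and none of these strings, and the median window held 14. The MALAT1 window shown also held 14, with TATAAA at position -30 from its start, while the window of the upstream start held 37 CpG, 5 GC boxes, and no TATAAA. TUG1 held 28 CpG, with 2 CCAAT boxes and 4 GC boxes by this search, and the CRNDE window held 44 CpG. These are matches of letters, and binding was not measured.

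Both arms of miR-675 are cut from H19 RNA, and miR-770 lies in MEG3. Their mature sequences are given to show what is carried within these transcripts, with the seed (bases 2 to 8) in capitals.
hsa-miR-675-5p, from H19: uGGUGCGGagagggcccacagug
hsa-miR-675-3p, from H19: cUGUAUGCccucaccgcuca
hsa-miR-770-5p, from MEG3: uCCAGUACcacgugucagggcca
The 3 seeds differ from each other. Of 8 microRNA genes named within H19, MEG3, NEAT1, and PVT1, 4 were listed in the tables, among them MIR770, and all 4 were at 0 in every library, so that nothing was measured of the microRNAs themselves in these libraries of total RNA.

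Of the 7 RNAs with enough counts to be tested, 5 were lower in RPS6 RIP than in input and 0 were higher. MALAT1 fell 8.20-fold, NEAT1 7.60-fold, CRNDE 4.76-fold, TUG1 3.12-fold, and H19 2.39-fold on the scale of normalized counts, while PVT1 and KCNQ1OT1 did not pass the test and MEG3 was too rare for it. The test was edgeR's quasi-likelihood test with the cell line as a block, run on the 19910 genes whose mean count reached 10, at an adjusted p of 0.05. Over all genes tested, 24.9% were called lower and 26.5% higher, with a median log2 fold change of -0.05. Without TMM normalization the calls over all genes leaned to the lower side, with 37.9% of them higher against 51.6% with it, and the same setting added PVT1 to the RNAs called lower. Without the block for the cell line, 2 of the 8 RNAs (MALAT1 and NEAT1) were called lower. The 8 RNAs together took 1.77% of fragments in Hep3B input and 0.237% in Hep3B RIP. In HCT116 they took 0.315% and 0.0229%, in DU145 0.909% and 0.0661%, and in SW1990 0.354% and 0.133%. RIP libraries are relative, so a lower share shows depletion against other RNAs of the pulldown and not how many molecules were bound.

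**Figure D1:**
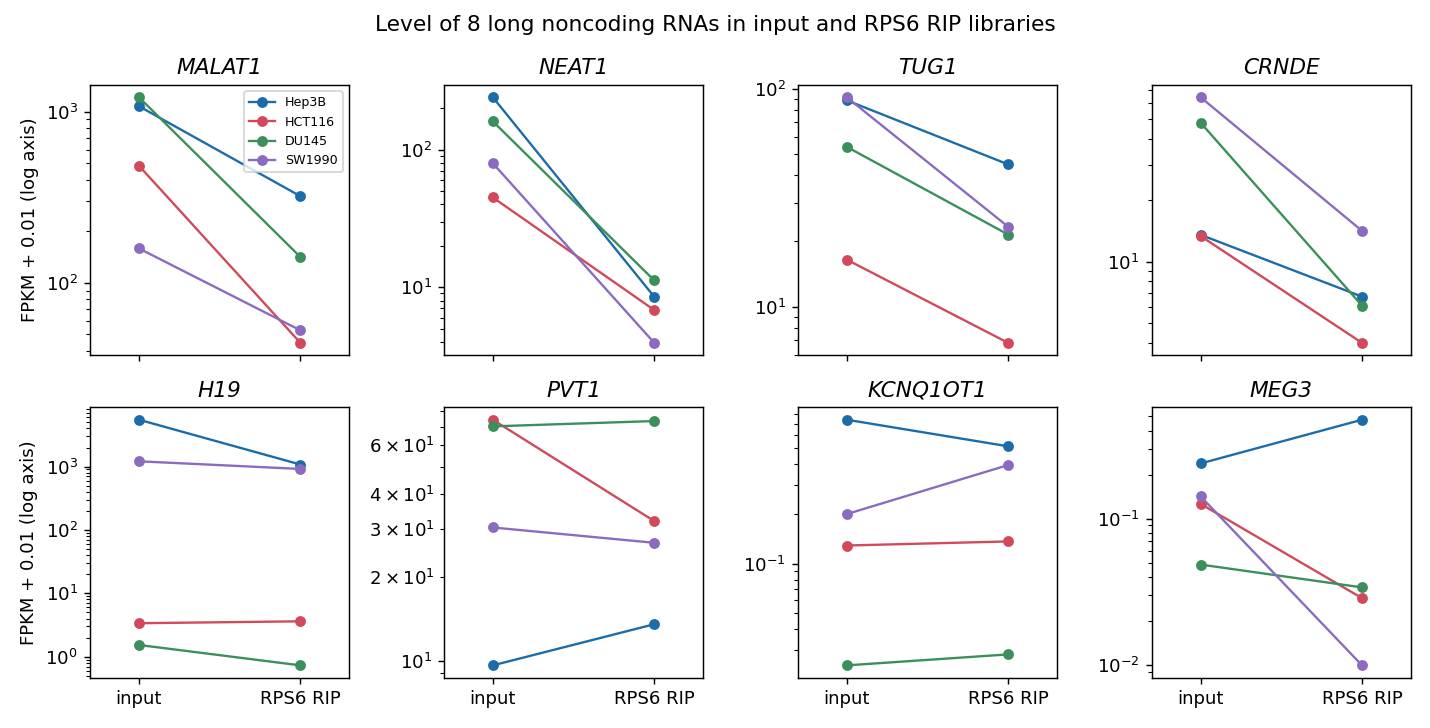
FPKM (with 0.01 added, log axes that differ between panels) of each RNA in input and RPS6 RIP, with a line joining the 2 libraries of each cell line. MALAT1, NEAT1, TUG1, and CRNDE slope down in all 4 lines, H19 spans over 3 orders of magnitude between lines, and KCNQ1OT1 and MEG3 lie under 1 FPKM throughout.

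MALAT1, the RNA of nuclear speckles, ranked between 42 and 715 by FPKM among the 19910 genes in the inputs. Its input level was 1076 FPKM in Hep3B cells, 483 in HCT116 cells, 1215 in DU145 cells, and 159 in SW1990 cells. In RIP its level was 320 FPKM for Hep3B, 44.4 for HCT116, 141 for DU145, and 52.6 for SW1990. Input was higher than RIP within each line, by 3.36-fold, 10.9-fold, 8.60-fold, and 3.01-fold in that order of lines, although the RIP level of Hep3B was above the input level of SW1990, so that the groups overlapped. The fitted log2 fold change on counts was -3.04 (SE 0.37, edgeR adjusted p = 7.52e-05), and 2.79% of genes tested had a lower one. MALAT1 was not absent from the pulldown, where 6072 to 30225 fragments were found and its FPKM stood above that of 85.6% to 98.5% of genes tested.

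NEAT1, the scaffold of paraspeckles, had the lowest mean ratio of RIP to input of the 8 on FPKM. Its input level was 240 FPKM in Hep3B cells, 44.9 in HCT116 cells, 161 in DU145 cells, and 79.7 in SW1990 cells. Its RIP level was 8.49 FPKM for Hep3B, 6.80 for HCT116, 11.2 for DU145, and 3.93 for SW1990. Every RIP library was below every input library, and the fold between them was 28.3, 6.60, 14.4, and 20.3 within the lines. On counts the log2 fold change was -2.93 (SE 0.30, edgeR adjusted p = 2.78e-05), close to that of MALAT1. On the log2(FPKM + 1) scale the mean difference was -3.75 ± 0.88 (SD, n = 4) for NEAT1 and -2.46 ± 0.93 (SD, n = 4) for MALAT1, so which of both fell more depended on the unit.

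The gap between the units was large for NEAT1 among the 5 RNAs in which it could be followed. The number of counts per FPKM, set to 1 for the median gene of a library, follows the transcript length that the authors' estimates imply, and it was 1.60 to 2.31 for NEAT1 in input and 3.87 to 5.19 in RIP. It rose by 2.54-fold in Hep3B, 1.68-fold in HCT116, 2.75-fold in DU145, and 2.32-fold in SW1990. Of 10692 genes with at least 50 counts in every library, 0.131% rose by at least 1.5-fold in all 4 lines, NEAT1 among them, and 0.0561% fell as much. Only 0.0748% of these genes had a higher mean change than NEAT1. For MALAT1 the measure fell in each line, to 0.658 to 0.875 of input. In TUG1, KCNQ1OT1, and PVT1 it stayed between 0.786 and 1.14 of input. How fragments were spread along NEAT1, and over its isoforms, cannot be read from a table of genes, and the measure was chosen after the values were seen.

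**Figure D2:**
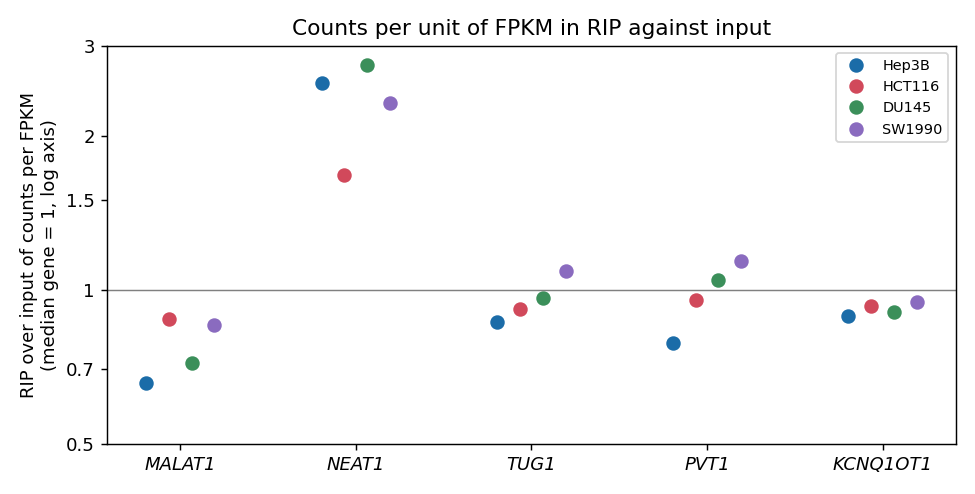
RIP over input of the counts per FPKM (log axis, median gene of each library set to 1) for the 5 RNAs with at least 50 counts in every library, with 1 point for each cell line. NEAT1 lies between 1.68 and 2.75, while the other RNAs lie between 0.658 and 1.14.

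TUG1, a conserved RNA found in both nucleus and cytoplasm, fell by a similar amount in each line. RefSeq classes TUG1 as protein-coding, so it counts among the RefSeq protein-coding genes below and not among the RefSeq long noncoding RNAs. Hep3B input held it at 88.5 FPKM, HCT116 at 16.4, DU145 at 54.1, and SW1990 at 91.4. The corresponding RIP values were 44.9 in Hep3B cells, 6.80 in HCT116 cells, 21.4 in DU145 cells, and 23.2 FPKM in SW1990 cells. All 4 lines went down, by 1.97-fold to 3.93-fold, with ranges that overlapped between the groups. Its log2 fold change on counts was -1.64 with an SE of 0.19, the smallest SE of the 7 RNAs (edgeR adjusted p = 5.49e-05). RP3-430N8.11, a gene that overlaps TUG1, took up to 1051 fragments in a library, and how the counting split reads between them is not known.

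CRNDE, an RNA raised in colorectal tumors, was most abundant in the inputs of the pancreatic and prostate lines. It was at 13.5 FPKM in input for Hep3B, 13.4 for HCT116, 48.2 for DU145, and 64.2 for SW1990. In RIP it was at 6.73 FPKM in Hep3B cells, 3.98 in HCT116 cells, 6.07 in DU145 cells, and 14.2 in SW1990 cells. RIP was lower in 4 of 4 lines, by 2.01-fold in Hep3B and 7.93-fold in DU145 at the extremes, and only SW1990 RIP reached the range of the inputs. Its log2 fold change on counts was -2.25 (SE 0.36, edgeR adjusted p = 0.000442), from 40 to 141 fragments in RIP.

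H19, a maternally expressed RNA of fetal liver and of many tumors, was the RNA that differed most between lines. It reached 5496 FPKM in Hep3B input, 1213 in SW1990, 3.37 in HCT116, and 1.52 in DU145, a 3611-fold range. In RIP the order was the same, with 1078 FPKM in Hep3B, 918 in SW1990, 3.61 in HCT116, and 0.719 in DU145. H19 alone took 358264 fragments of Hep3B input, and 44445, or 0.128%, of Hep3B RIP. The drop was 5.10-fold in Hep3B and 1.32-fold in SW1990, with at least 37833 fragments in each of these libraries, and it was 2.12-fold in DU145, with 164 and 34 fragments. In HCT116 the level in RIP was 1.07 times that in input, from 263 and 133 fragments, although on normalized counts its log2 ratio there was -0.40. The log2 fold change over the lines was -1.26 (SE 0.40, 95% interval -2.15 to -0.37, edgeR adjusted p = 0.0224), and the call was lost without DU145 (-1.23, adjusted p = 0.0662). Without Hep3B the value was -0.83 (adjusted p = 0.0281). With limma on log2(FPKM + 1) it was -0.81 (adjusted p = 0.129).

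Liver markers were counted at a low level outside Hep3B. The 6 liver markers summed to 107 fragments in HCT116 input and 346 in HCT116 RIP, against 520159 and 757970 in the Hep3B pair. The same sums were 1655 and 1591 in the DU145 pair, of which SERPINA1 made up 1645 and 1587, and 76 and 122 in the SW1990 pair. In HCT116, ALB, APOA1, APOB, and SERPINA1 were above 0 in both libraries. ALB, the albumin gene, had 130 fragments in HCT116 RIP and 375365 in Hep3B RIP. H19 had 133 in HCT116 RIP, and its neighbor IGF2 had 18888 there and 549631 in Hep3B RIP. The part of such RNA in the HCT116 values was not tested.

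KCNQ1OT1, a long unspliced RNA that silences its imprinted cluster in cis, did not pass the test, and its lines went both ways. Input held 3220 fragments for Hep3B, 713 for HCT116, 98 for DU145, and 844 for SW1990, and RIP held 1338, 424, 54, and 1210. Per length these were low levels, from 0.0143 to 0.729 FPKM in input and from 0.0183 to 0.5005 in RIP, with Hep3B highest and DU145 lowest in both. The log2 ratio of normalized counts ran from -1.01 in Hep3B over -0.16 in HCT116 and 0.06 in DU145 to 0.79 in SW1990. The fitted log2 fold change was -0.09 (95% interval -0.72 to 0.54, edgeR adjusted p = 0.814), an interval that allows RIP levels from 0.609 to 1.45 times those of input. KCNQ1, which runs on the opposite strand through the same span, had more fragments than KCNQ1OT1 in SW1990 RIP, 3581 against 1210. The same held in SW1990 input (1035 against 844) and HCT116 RIP (614 against 424), while KCNQ1 had fewer in all other libraries. The library kit keeps strand, but whether the counting used it is not given in the sources used here, and reads of this pair may then not be told apart.

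MEG3, a maternally expressed RNA often lost in tumors, was close to the limit of detection. The input libraries had 25 fragments in Hep3B cells, 5 in HCT116 cells, 12 in DU145 cells, and 4 in SW1990 cells. The RIP libraries had 21, 2, 2, and 0 fragments in the same order. A count of 0 in SW1990 RIP allows up to 0.0779 in 1000000 fragments. Its mean of 8.92 counts was under the minimum of 10, and in a fit with no minimum its log2 fold change was -1.22 (SE 1.17, edgeR adjusted p = 0.545). No difference was detectable at this depth.

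PVT1, the neighbor of MYC at chr8:128806778-129113499, was close to its input level in 3 lines and did not pass the test. Its input level was 9.60 FPKM for Hep3B, 74.3 for HCT116, 70.3 for DU145, and 30.3 for SW1990. In RIP it was at 13.5 FPKM in Hep3B cells, 31.9 in HCT116 cells, 73.5 in DU145 cells, and 26.7 in SW1990 cells. HCT116 was the line with a drop of more than 2-fold (2.33-fold), and on normalized counts its log2 ratio was -1.43 while the other 3 lines lay between -0.15 and -0.02. The fitted log2 fold change was -0.43 (95% interval -1.02 to 0.16, edgeR adjusted p = 0.203). Without HCT116 it was -0.10 (adjusted p = 0.769), and without TMM it was -0.78 (adjusted p = 0.0426), past the threshold.

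**Figure D3:**
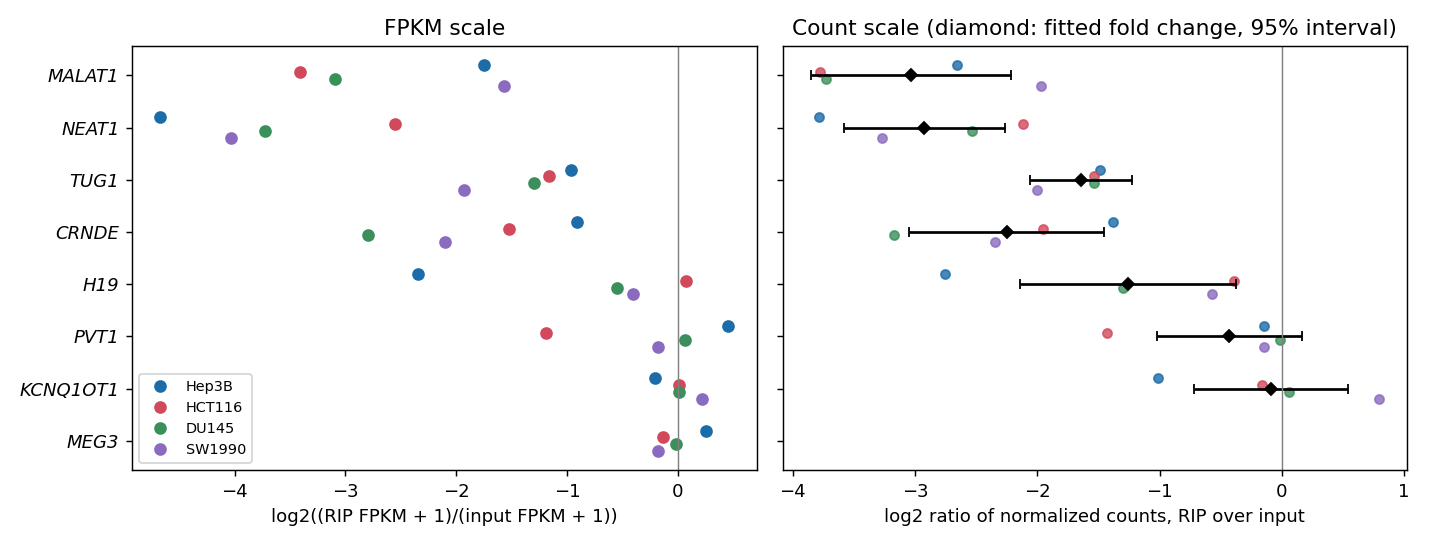
Log2 ratio of RIP to input for each RNA, with 1 point for each cell line, on FPKM (left, 1 added to both) and on normalized counts (right, with the edgeR fold change and its 95% interval as a diamond with bars). MALAT1, NEAT1, TUG1, and CRNDE lie left of 0 in all 4 lines on both scales, and the intervals of PVT1 and KCNQ1OT1 include 0.

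Line by line, a drop of at least 2-fold on the (FPKM + 1) scale was found for 3 of the 8 RNAs in Hep3B, where 10.6% of 19910 genes dropped as much. It was found for 5 in HCT116 (13.4% of genes), 4 in DU145 (13.6%), and 4 in SW1990 (16.0%). None of the 8 rose by 2-fold in any line, where 19.2%, 18.7%, 18.2%, and 19.8% of genes did. KCNQ1OT1 and MEG3, under 1 FPKM in every library, could not change by 2-fold on this scale, whichever way they went. With nothing added to FPKM, RIP was 2.03 times input for KCNQ1OT1 in SW1990, and 2.03 times for MEG3 in Hep3B, from 21 RIP fragments. In the other lines KCNQ1OT1 lay between 0.687 and 1.28 times input, and MEG3 below input. On the (FPKM + 1) scale the mean log2 ratio over the lines was -1.34 ± 0.42 (SD, n = 4) for TUG1 and -1.84 ± 0.80 (SD, n = 4) for CRNDE. It was -0.81 ± 1.06 for H19, -0.21 ± 0.70 for PVT1, 0.01 ± 0.17 for KCNQ1OT1, and -0.02 ± 0.19 for MEG3. The 4 RNAs that were lower in 4 of 4 lines, MALAT1, NEAT1, TUG1, and CRNDE, reached p = 0.125 in an exact two-sided sign-flip permutation test, which is the smallest p that 4 lines allow.

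Between lines the RNAs did not share an order by FPKM. The values of Hep3B and HCT116 were deposited apart from those of DU145 and SW1990. FPKM over all genes summed to 1659968 in Hep3B input, 981929 in HCT116 input, 892435 in DU145 input, and 884796 in SW1990 input. These sums were not made equal. MALAT1 was highest in DU145 input and lowest in SW1990 input (7.66-fold), NEAT1 highest in Hep3B and lowest in HCT116 (5.35-fold), and TUG1 highest in SW1990 and lowest in HCT116 (5.57-fold). CRNDE was highest in SW1990 and lowest in HCT116 (4.80-fold), and PVT1 highest in HCT116 and lowest in Hep3B (7.74-fold). H19 and KCNQ1OT1 kept 1 order of lines in input and RIP, Hep3B above SW1990 above HCT116 above DU145. There is 1 library for each value, so only counting error can be given for such an order. It is given in fragments and not in FPKM, and some close orders turned with the unit. In 1000000 fragments of input, TUG1 was at 385 in Hep3B and 378 in SW1990, and CRNDE at 4.78 in Hep3B and 5.31 in HCT116. PVT1 in RIP was at 11.8 in HCT116 and 11.9 in SW1990. By 95% Wilson intervals of the fragments in 1000000, TUG1 in Hep3B and SW1990 input (379 to 392 and 372 to 384), CRNDE in Hep3B and HCT116 input (4.11 to 5.55 and 4.68 to 6.02), and PVT1 in HCT116 and SW1990 RIP (10.8 to 12.9 and 10.9 to 13.1) could not be ordered. In RIP, the CRNDE interval of Hep3B (1.195 to 2.034) overlapped those of HCT116 (0.689 to 1.28) and DU145 (1.29 to 2.13). MEG3 could not be ordered among HCT116, DU145, and SW1990, in input or in RIP.

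Most neighbors of these RNAs in the genome were higher in RIP. Of 11 genes in the imprinted clusters of H19, KCNQ1OT1, and MEG3, 7 had enough counts, and 5 were higher in RIP, 0 were lower, and 2 were not called (median log2 fold change 1.65). IGF2, the fetal growth factor beside H19, rose with a log2 fold change of 2.54 (edgeR adjusted p = 0.00874), from 1456 to 1949 FPKM in Hep3B cells, 5.12 to 88.5 in HCT116 cells, 0.0657 to 1.55 in DU145 cells, and 3.24 to 6.81 in SW1990 cells. KCNQ1, a potassium channel, rose by 1.89 (adjusted p = 0.000250). CDKN1C, a cell cycle inhibitor, passed the test as well (adjusted p = 0.000599). Its FPKM went from 159 to 569 in Hep3B, from 12.4 to 31.6 in HCT116, and from 11.4 to 33.4 in SW1990, but from 0.806 to 0.720 in DU145. SLC22A18 rose by 1.65 (adjusted p = 0.000192). DLK1, a Notch ligand homolog beside MEG3, passed too, but its counts came from Hep3B, and the other lines had at most 1 fragment.

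Of 7 other neighbors, 5 were higher, 1 was lower, and 1 was not called (median 1.46). FRMD8, near MALAT1 and NEAT1, rose by 1.88 (edgeR adjusted p = 4.07e-05). MYC, beside PVT1, rose by 1.46, with RIP above input in each line. IRX5, beside CRNDE, rose by 1.38, and MRPL23, a mitochondrial ribosomal protein gene near H19, fell by 0.83. The neighbors named here are protein-coding, and 32.3% of RefSeq protein-coding genes were called higher in RIP and 26.1% lower.

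mRNAs of proteins that live in the same nuclear bodies went both ways, and shares over all protein-coding genes were 32.3% higher and 26.1% lower. Of 12 mRNAs of paraspeckle proteins, 2 were higher, 5 were lower, and 5 were not called (median -0.15). SMARCA4, a chromatin remodeler, rose by 2.35 and RBM14 by 1.51, while HNRNPH3 fell by 2.36 and NUDT21 fell by 1.49. SFPQ and PSPC1, core paraspeckle proteins, had log2 fold changes of -0.04 and 0.04 and were not called. Of 14 mRNAs of nuclear speckle proteins, 2 were higher, 8 were lower, and 4 were not called (median -0.71). U2AF2 rose by 1.07 and SRRM2 rose with an edgeR adjusted p of 0.00872, whereas PNN fell by 2.35 and the splicing factor SRSF5 fell by 2.28.

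Most other long noncoding RNAs of the lists were lower in RIP too. Among 15 further RNAs known from the nucleus or from cancer that could be tested, 12 were lower, 0 were higher, and 3 were not called (median -1.74). HULC and HOTAIR had the lowest fitted values and few fragments: HULC had 225 in Hep3B input and 6 in RIP, and HOTAIR had 60 in DU145 input and 2 in RIP. CCAT1 fell by 1.16, and FTX, of the X inactivation center, fell as well (edgeR adjusted p = 0.0108). Among 14 long noncoding RNAs known mainly from the cytoplasm or as hosts of snoRNAs, 12 were lower, 0 were higher, and 2 were not called (median -1.96). SNHG6 fell by 4.65 and EPB41L4A-AS1 fell by 2.87, and the smallest changes that passed were SNHG16 at -0.62 and DANCR at -0.68. The difference between the lists was not tested. Over 536 RefSeq long noncoding RNAs the median was -0.74, with 25.4% lower and 7.46% higher. The 536 include the tested RNAs of this report other than TUG1. Without them, 24.9% of 530 were lower and 7.55% higher, and RNAs of the other lists were not taken out. Many of these are rare. Among the 99 of the 536 that were at least as abundant as CRNDE, a set made after the values were seen, 41 were lower and 17 higher (41.4% and 17.2%, median -0.62), against 30.6% and 39.1% of the 11539 genes of any kind at that abundance. The 99 also include the tested RNAs of this report other than TUG1, and shares without them were not computed.

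**Figure D4:**
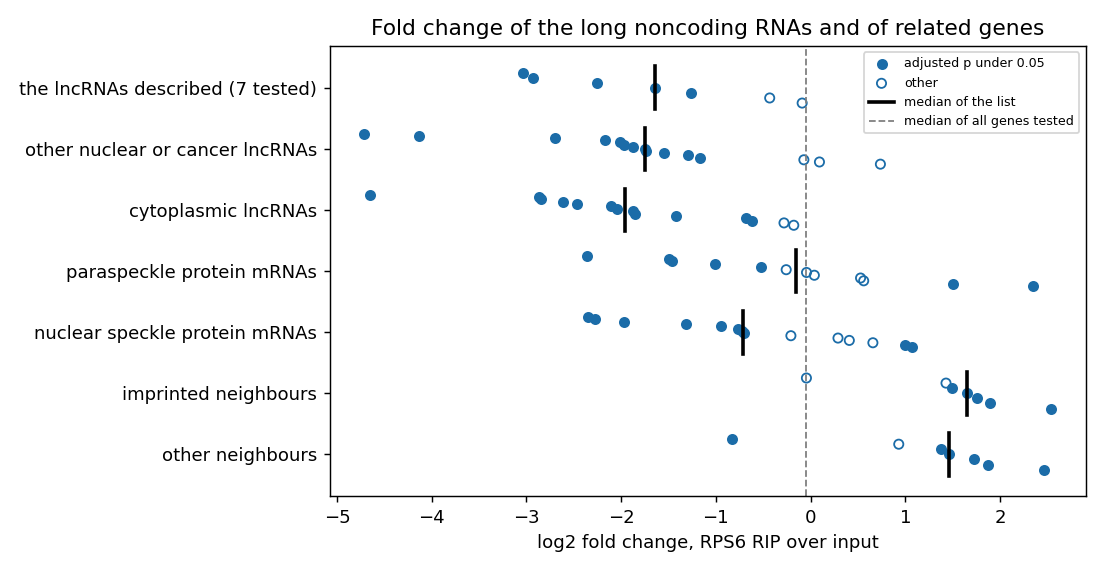
Log2 fold change of RPS6 RIP over input (edgeR) for the 7 RNAs tested and for the related gene lists, 1 point for each gene, filled where the adjusted p was under 0.05, with the median of each list as a black bar and that of all genes as a dashed line. The medians of the 3 lists of long noncoding RNAs lie at -1.64, -1.74, and -1.96, and those of both lists of neighbors at 1.65 and 1.46.

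The genes whose FPKM was most like each RNA over the 8 libraries were found by Pearson's r of log2(FPKM + 1), given as a description over libraries that share cell lines. For MALAT1 these were AC119673.1 (r = 0.993) and FAM73A (0.987), and for NEAT1 RP11-798G7.8 (0.983) and SCARNA7 (0.978), a small RNA of Cajal bodies. SCARNA7 was at 14.1 to 516 FPKM in the inputs, at 1.13 in DU145 RIP, and listed at 0 in the other RIP libraries. TUG1 was matched by RP11-138I1.3 (0.992) and AC003075.4 (0.989), and CRNDE by CCDC53 (0.994) and WAC-AS1 (0.976). PVT1 was matched by TXNRD1, thioredoxin reductase (0.983), and RP11-703I16.1 (0.962). H19 was matched by RP11-120K24.3 (0.991) and GATA6-AS1 (0.989), each at most 2.84 FPKM and above 0.6 in all libraries of Hep3B and SW1990. KCNQ1OT1 was matched by PECR (0.973) and DNAH7 (0.970). Several other matches were rare as well. DNAH7 was at most 0.493 FPKM, RP11-798G7.8 at most 0.932, RP11-703I16.1 at most 2.19, and AC003075.4 at most 2.55.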

How the data were processed

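RIP and input RNA of 4 cell lines was sequenced by the authors from libraries of the TruSeq Stranded Total RNA kit. Per the labels and the paper, base calling used CASAVA 1.8 and alignment to hg19 used TopHat (TopHat2 2.0.9). The tool that counted, the annotation release and the strand setting are not given in the sources used here. The authors deposited FPKM for each gene and library, normalized to length and depth, and estimated counts, scaled by one step per library (0.673 to 1.27). Dividing by this step gave fragments (92.5% to 93.9% of values under 1000 were whole to within 0.01). Tables of the authors' own pairwise comparisons, with fold changes and p-values, were not used.

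Estimated counts were rounded and tested with edgeR 4.0.16 in R 4.3.3 (TMM, cell line as a block, mean of at least 10 counts, Benjamini-Hochberg over 19910 genes, threshold 0.05). Ratios within a line used log2(FPKM + 1), with no test within a line and an exact sign-flip permutation test of their mean over the 4 lines. The same line pairs RIP and input by design, and their deviations from the group means correlated at 0.83 to 0.88 (other lines at most -0.05). Subtracting the group means by itself pushes values of other lines below 0 where those of the same line are high. Intervals are 95% Wilson intervals of fragments, and fragments are not independent molecules, so intervals and the floor of 3 fragments cover counting error only. Alternatives used limma 3.58.1, DESeq2 1.42.0, other scalings and minimums, no block, and each line left out. Named are the 8 RNAs, from each list up to 4 genes past the threshold (the 2 highest and 2 lowest fold changes), and for each tested RNA the 2 genes most alike over the libraries. DLK1, SFPQ, PSPC1, MYC, and markers were named beyond this rule, after their values were seen, and some genes of the lists are not reported here. The RNAs and lists were chosen with earlier results of these data known. Figures were drawn with matplotlib 3.10.9, and the rest was computed in Python 3.11.15 (SciPy 1.17.1, pandas 2.3.3, NumPy 2.4.6).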

Additional observations from a re-analysis of the deposited data

Results flagged for a closer look

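MEG3 in RIP stood apart in Hep3B, with a gap to the next line of 0.938 of the whole range of log2(FPKM + 1). It was the only such case in 24 groups of 4 libraries or ratios that were searched, and chance gives about 1 in 20. The Hep3B value came from 21 fragments.

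H19, PVT1, MEG3, and KCNQ1OT1 had a log2 ratio of RIP to input, on FPKM + 1, that was above 0 in one line and below 0 in another, a difference that was not tested, with 1 pair for each line. For H19 HCT116 and Hep3B differed by 2.43. For PVT1 Hep3B and HCT116 differed by 1.65. For MEG3 Hep3B and SW1990 differed by 0.43, and for KCNQ1OT1 SW1990 and Hep3B differed by 0.42. MEG3 and KCNQ1OT1 lay under 1 FPKM, where adding 1 narrows such differences. On normalized counts the log2 ratio of KCNQ1OT1 ran from -1.01 in Hep3B to 0.79 in SW1990.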

How the results depend on the processing

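MALAT1 and NEAT1 were called lower under all 13 alternatives, with log2 fold changes of -3.39 to -2.46 and -3.91 to -2.73. Without the block for the cell line, 2 of the 8 RNAs were called lower in place of 5 (all genes 1427 higher and 1345 lower, against 5282 and 4963), since TUG1 (-1.66, adjusted p = 0.125), CRNDE (-2.41, adjusted p = 0.0579) and H19 (-2.18, adjusted p = 0.650) missed the threshold. H19 also missed it with limma on log2(FPKM + 1) (-0.81) and log2(FPKM + 0.1) (-0.91), and without DU145. PVT1 passed with library totals (-0.78), a scaling that moved the median of all genes from -0.05 to -0.40. Relative to that median PVT1 stood at -0.38 under both scalings. KCNQ1OT1, never called, turned sign with limma (0.0074 and 0.094) and without Hep3B (0.15). With each cell line left out, log2 fold changes ranged from -1.79 to -1.52 for TUG1, from -2.62 to -1.92 for CRNDE, from -1.56 to -0.83 for H19, from -0.62 to -0.10 for PVT1, and from -0.41 to 0.15 for KCNQ1OT1. None of the 8 was called higher in any alternative run. MEG3 moved from -0.02 to -0.37 in its mean log2 ratio when 0.1 in place of 1 FPKM was added. Depth limits MEG3, with at most 25 fragments in a library.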
